A study of Mus musculus with 32 samples.

Results

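The genes described here are 9 of the 24421 genes in the count table, found by their symbols: Cs, Idh3a, Idh3b, Idh3g, Ogdh, Sucla2, Fh1, Idh2 and Idh1. They encode enzymes of the citric acid cycle (TCA cycle) and the isocitrate dehydrogenases that stand beside it. All 9 were counted in every library, with no fewer than 169 reads in any of them, and all passed the filter on low counts. The libraries were made from 8 fractions sorted from the bone marrow of female C57BL/6 mice, young at 10 weeks (Young) or aged at 20 months (Aged), with 2 libraries per fraction and age and 32 in all. No allele or agent was added in any group. By their labels, HSCs, MPP1, MPP2, MPP3 and MPP4 were Lin-, Sca-1+ and c-kit+. HSCs were CD34-, CD150+, CD48- and Flt3-, MPP1 differed in being CD34+, MPP2 were also CD48+, MPP3 were CD150-, CD48+ and Flt3-, and MPP4 were CD150-, CD48+ and Flt3+. GMPs (FcgR+, CD34+) and MEPs (FcgR-, CD34-) were c-kit+ and Sca-1-, and CLPs were low for Sca-1 and c-kit and carried the label IL-7+. According to the study, marrow was pooled and sorted in duplicate. The spread between the libraries of a group is thus not shown to be that between mice, and p-values measure only the spread between these libraries.

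The citric acid cycle runs in the mitochondrial matrix, where it oxidises acetyl groups to carbon dioxide and hands electrons to the respiratory chain as NADH and succinate. Citrate synthase (Cs) starts the cycle, the NAD-dependent isocitrate dehydrogenase IDH3 makes 2-oxoglutarate, the 2-oxoglutarate dehydrogenase complex turns this into succinyl-CoA, and fumarase (Fh1) makes malate. Isocitrate is also oxidised by a pair of NADP-dependent enzymes that make NADPH, one in mitochondria (Idh2) and one in the cytosol and peroxisomes (Idh1). In the marrow, quiescent HSCs are known for a low use of mitochondrial respiration, and erythroid precursors for a high one. Erythroid precursors also draw succinyl-CoA from the cycle to make heme.

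Total counts ranged from 11237384 to 17723245 per library, and 3 counts, the limit that a count of 0 allows, were 0.169 to 0.267 CPM (the read count relative to the total of its library). Such limits cover counting error only. Levels below are CPM after TMM normalisation, the scale on which fold changes were fitted, with factors from 0.807 to 1.11. Genes of the sort antigens were mostly highest where the labels place them: Slamf1 (CD150) was highest in HSCs, with means of 53.9 and 74.1 CPM in young and aged, Flt3 in MPP4 (1063 and 732), Fcgr3 in GMPs (481 and 493) and Il7r in CLPs (158 and 195). Cd34 was at 0.351 and 0.629 CPM in MEPs against at least 179 in the other fractions. The labelled negative gates were not free of these transcripts: Cd34 was at 204 and 179 CPM in young and aged HSCs (CD34-) and Flt3 at 279.6 and 188.5 in MPP3 (Flt3-). Il7r, not part of the MEP gate given above, was at 13.4 CPM in young against 0.309 in aged MEPs. Sort antigen genes also differed between ages within a fraction. In CLPs, Ly6a (Sca-1) was at 35.2 CPM in young and 214 in aged cells, and Fcgr3 at 23.3 and 2.94. Kit (c-kit) was at 1331 and 981 CPM in young and aged MPP1, but at 310 and 412 in GMPs. Some libraries held RNA of other lineages. The 6 B lineage genes summed to 116 to 118 CPM in young MEPs against 0 to 0.843 in aged ones, and the 5 basophil and mast cell genes to 1737 to 1785 CPM in young CLPs against 8.26 to 12.0 in aged ones. Sums of neutrophil and monocyte, erythroid, macrophage and B lineage genes were also higher in young than in aged CLPs, as given with the markers below. Replicates stood furthest apart in aged HSCs and aged CLPs. There the squared difference between the pair of libraries, averaged over genes, was 26.8 and 24.3 times what counting error gives. In the other groups this ratio of squares was 5.86 to 22.1. In these bulk libraries, fewer cells of a type and less RNA per cell cannot be told apart, and the sources used here do not say whether the fractions were prepared together, so fraction and preparation cannot be told apart either.

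All 9 genes are protein-coding. In the GRCm38 (mm10) annotation GENCODE M21, Cs lies on chromosome 10 (128337734 to 128362479, plus strand), Idh3a on 9 (54586334 to 54604661, plus), Idh3b on 2 (130279309 to 130284547, minus) and Idh3g on X (73778963 to 73786897, minus). Ogdh is on 11 (6291633 to 6356642, plus), Sucla2 on 14 (73525319 to 73596142, plus) and Fh1 on 1 (175600374 to 175625635, minus). Idh2 is on 7 (80094846 to 80115392, minus) and Idh1 on 1 (65158616 to 65186500, minus). Of the 60-base stretches of the Cs transcript, the length of the reads, 2.44% also occur in the transcripts of Csl, so a small part of the Cs count is uncertain. The other 8 transcripts shared no such stretch with another gene. Exons of Idh3b overlap those of Nop56 on the opposite strand by 5 bases, and whether counting used the strand is not given in the sources used here.

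The stretches before 4 of the RefSeq start sites are shown for a pair of cycle genes that rose in aged MPPs on average, Cs and Fh1, and for Idh2 and Idh1, the paired NADP-dependent enzymes, which went opposite ways in that mean. Each line gives bases 250 to 51 before the start, read 5′ to 3′ on the strand of the gene (RefSeq, GRCm38.p6), at chr10:128337477-128337676 for Cs (plus), chr1:175625686-175625885 for Fh1 (minus), chr7:80115401-80115600 for Idh2 (minus) and chr1:65186530-65186682 for Idh1 (minus, without the part that is an exon of Pikfyve). Capitals mark matches to CCAAT (the NF-Y motif) or GGGCGG (SP/KLF) on either strand (a match on the other strand reads ATTGG or CCGCCC). The matches of Idh2 lie nearer the start than the stretch shown, so its line has no capitals.
Cs: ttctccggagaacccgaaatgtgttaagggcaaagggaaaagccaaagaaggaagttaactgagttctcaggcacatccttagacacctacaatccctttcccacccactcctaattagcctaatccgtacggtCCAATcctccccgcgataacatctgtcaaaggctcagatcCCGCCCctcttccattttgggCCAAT
Fh1: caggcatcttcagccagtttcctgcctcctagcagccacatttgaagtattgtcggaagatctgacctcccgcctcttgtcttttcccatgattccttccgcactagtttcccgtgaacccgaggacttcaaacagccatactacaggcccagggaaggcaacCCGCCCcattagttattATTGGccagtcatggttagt
Idh2: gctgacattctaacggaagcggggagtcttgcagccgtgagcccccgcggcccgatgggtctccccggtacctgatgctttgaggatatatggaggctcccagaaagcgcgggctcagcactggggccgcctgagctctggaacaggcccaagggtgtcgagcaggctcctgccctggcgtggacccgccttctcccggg
Idh1: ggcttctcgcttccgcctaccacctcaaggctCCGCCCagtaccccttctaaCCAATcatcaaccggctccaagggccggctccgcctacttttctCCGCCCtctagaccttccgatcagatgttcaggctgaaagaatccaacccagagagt
In the whole windows of 300 bases, from 250 before to 50 after the start, CCAAT was found 2 times for Cs and for Fh1 and 1 time for Idh2 and for Idh1, and GGGCGG 3 times for Cs, 1 time for Fh1 and 2 times for Idh2 and for Idh1. Of all 32851 RefSeq mouse promoters, 37.4% held CCAAT and 35.7% GGGCGG on either strand. None of these 4 windows held the letters of NRF1 (GCGCATGC, in 2.71% of promoters), the E-box (CACGTG, 7.15%), ETS factors (CCGGAAG, 8.86%) or the binding motif of the estrogen-related receptors (AAGGTCA, 4.72%). A further RefSeq start of Idh1, with its window at chr1:65179093-65179392 and not shown, held CCAAT 0 times and GGGCGG 1 time. Among the other members, Idh3b and Idh3g had 1 match each to CCGGAAG, and the alternative starts of Ogdh matched GCGCATGC, CACGTG and AAGGTCA. Promoters of 8 of the 9 genes were matched by symbol, and the missing one is Idh3a.

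The range of the young means over the fractions ran from 1.51-fold for Ogdh to 29.6-fold for Idh1. The question here is where along the path from HSCs to committed progenitors each enzyme is transcribed most. In young cells, citrate synthase and the catalytic IDH3 subunit were highest in MEPs, both NADP-dependent enzymes were highest in GMPs, and HSCs or MPPs held the lowest levels of 6 of the 9 genes. Young fractions differed in all 9 genes (F-test of edgeR with 7 degrees of freedom, adjusted p from 2.6e-19 to 7.1e-07), against 86.9% of all genes tested. In aged cells 9 of 9 also differed, against 85.5% of all genes.

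**Figure D1:**
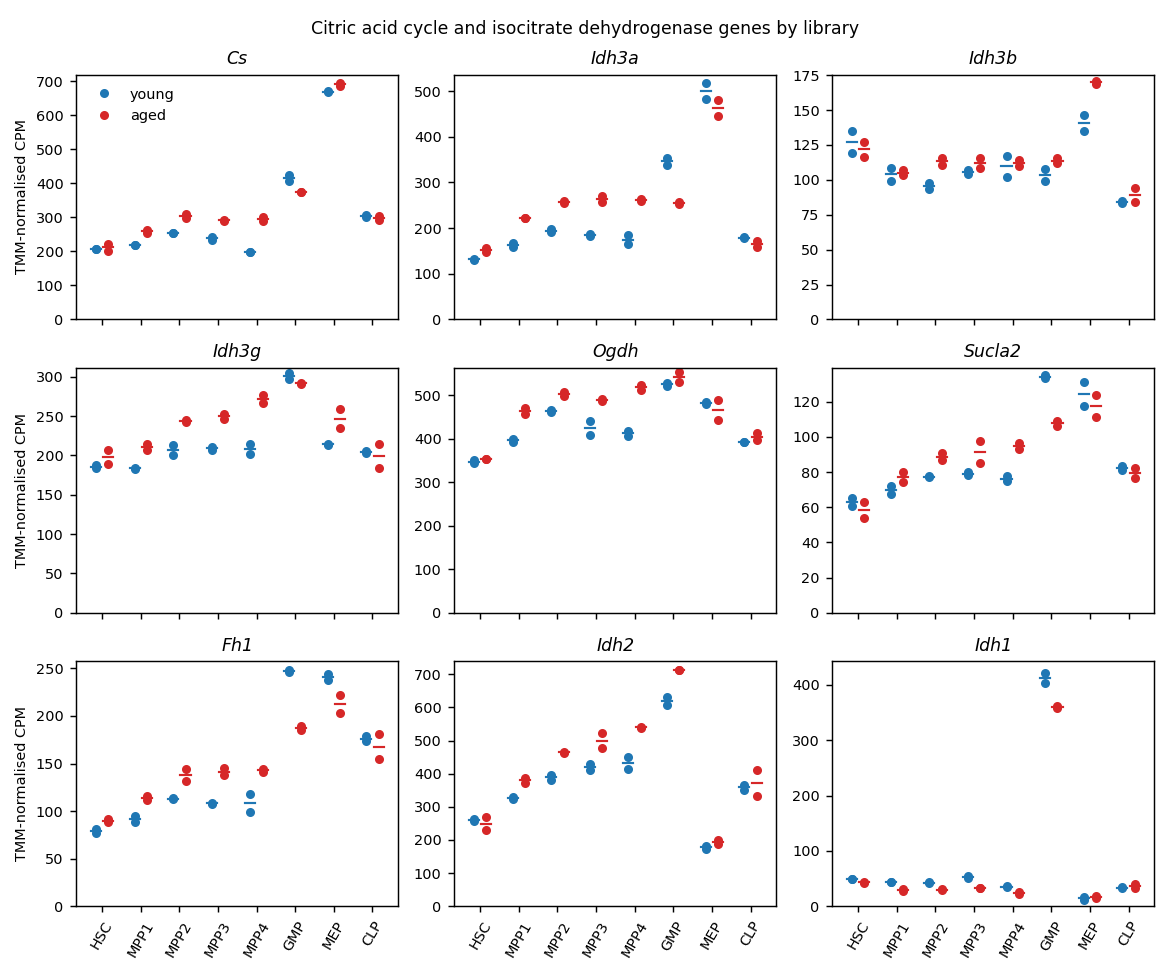
Level of each of the 9 genes (vertical axis, TMM-normalised CPM, from 0) in the 8 fractions (horizontal axis). Each point is 1 library, blue for young and red for aged, and short lines are means of 2. Cs and Idh3a peak in MEPs, Idh1 stands above 358 CPM in GMPs and at or below 54.7 CPM elsewhere, and in MPP1 to MPP4 the aged points lie above the young ones for all but Idh3b and Idh1.

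Cs, citrate synthase, was at 668 and 671 CPM in the 2 libraries of young MEPs and at 408 and 424.5 in young GMPs. CLPs followed with 306 and 302 CPM. The levels in MPP2, MPP3, MPP1, HSCs and MPP4 lay between 197 and 254 CPM. The steps from MEPs to GMPs, from GMPs to CLPs and from CLPs to MPP2 were past the threshold of an adjusted p of 0.01 (1.4e-10, 1.4e-07 and 0.00022), and the neighbours from MPP2 down to MPP4 did not (adjusted p of at least 0.16). The range from the lowest to the highest mean was 3.39-fold. Of the 28 pairs of young fractions, 23 differed in Cs, the largest number among the 9 genes, against 42.4% of all genes and pairs tested.

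IDH3 is built of catalytic alpha subunits (Idh3a) and of beta and gamma subunits (Idh3b, Idh3g), of which gamma is regulatory. The 3 subunit genes did not share an order of fractions. Idh3a was at 517 and 482 CPM in young MEPs and 339 and 354 in young GMPs, then dropped to 158 to 197 in MPPs and CLPs, and was lowest in HSCs at 131 and 133. MEPs differed from GMPs and GMPs from MPP2 (adjusted p of 1.5e-07 and 1.4e-10), and HSCs from MPP1 (0.00094), while the fractions between did not differ from their neighbours. Idh3b varied least in absolute terms, from a mean of 83.9 CPM in CLPs to 141 in MEPs, and no neighbours in its order differed, although 13 of 28 pairs did. It was the one gene of the 9 called higher in young HSCs, at 119 and 135 CPM, than in MPPs on average (log2 difference 0.30 ± 0.06 SE, adjusted p = 0.00054). Idh3g was highest in GMPs, at 297 and 305 CPM, and 183 to 215 CPM in all other young libraries, so that only the step from GMPs to MEPs was past the threshold (adjusted p = 1.4e-06).

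Ogdh encodes the first component of the 2-oxoglutarate dehydrogenase complex and Sucla2 the ADP-forming beta subunit of succinyl-CoA ligase. Ogdh had the smallest range among fractions, 1.51-fold, from 344 and 352 CPM in young HSCs to 530 and 523 in young GMPs. Its order fell in small steps, of which the lowest, from CLPs to HSCs, was past the threshold (adjusted p = 0.0051). Sucla2 was at 135 and 133 CPM in young GMPs and 131 and 118 in young MEPs, which did not differ, and at 60.5 to 83.5 in all other young libraries, with a step between MEPs and CLPs (adjusted p = 1.6e-06). Fh1, fumarase, had a similar shape: 246 and 249 CPM in GMPs, 237 and 244 in MEPs, 179 and 173 in CLPs, 88.1 to 118 in MPPs and 76.8 and 81.1 in HSCs. For Fh1 the steps below MEPs and below CLPs were past the threshold (adjusted p of 2.8e-05 and 6.7e-07).

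Idh2 and Idh1 had the opposite end in common: both were lowest in MEPs, where Cs and Idh3a peaked. Idh2 was at 174 and 182 CPM in young MEPs, 258 and 264 in HSCs, 325 to 451 in MPPs, and 632 and 607 in GMPs. GMPs stood above MPP4 (log2 difference 0.52, adjusted p = 8.2e-06), and HSCs below MPP1 and MEPs below HSCs (adjusted p of 0.0053 and 3.1e-06). Idh1 had the widest range of the 9 genes. It was at 403 and 422 CPM in young GMPs and at 11.8 and 16.1 in young MEPs, a 29.6-fold range of means, with 32.5 to 54.7 in the other young fractions. GMPs exceeded the mean of MPP1 to MPP4 by 3.25 ± 0.07 on the log2 scale (SE, adjusted p = 1.0e-19), and MEPs lay 1.64 ± 0.10 below it (adjusted p = 3.3e-12).

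Against the mean of young MPP1 to MPP4, young GMPs were higher in 8 of 9 genes and lower in none, beside 32.1% and 32.7% of all genes, and Idh3b did not differ (log2 difference 0.00 ± 0.06). Young MEPs were higher in 6, with Cs at 1.57 ± 0.04 and Idh3a at 1.48 ± 0.04, and lower in Idh2 (-1.13 ± 0.07) and Idh1, beside 31.3% and 39.5% of all genes. The median over all genes was -0.29 in this comparison and between -0.10 and 0.02 in the other 3. Young HSCs were lower in 5 genes, Idh3a, Ogdh, Sucla2, Fh1 and Idh2, by 0.27 to 0.58, and higher in Idh3b, beside 18.9% and 19.2%. Young CLPs were higher in Cs and Fh1 (0.43 ± 0.04 and 0.75 ± 0.06) and lower in Idh3b and Idh1 (-0.30 ± 0.07 and -0.36 ± 0.09), beside 28.2% and 25.2%.

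Between genes, levels can be compared only per length. Per kilobase of 1 annotated transcript, young HSCs held 149 CPM of Idh2, 139 of Idh3g, 84.3 of Ogdh, 78.6 of Idh3b, 70.7 of Cs, 54.8 of Idh3a, 30.0 of Fh1, 28.2 of Sucla2 and 21.2 of Idh1. In young MEPs the order began with Cs at 229, Idh3a at 208 and Idh3g at 161, and in young GMPs with Idh2 at 355, Idh3g at 226 and Idh1 at 179. Summed over the 9 genes, the normalised level was 1451 ± 33 CPM in young HSCs, 1599 to 1836 in MPPs, 1814 ± 8 in CLPs, 2565 ± 29 in MEPs and 3107 ± 26 in GMPs (mean ± SD, n = 2).

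The main comparison of the study is between ages within a fraction. In MPP1 to MPP4 the genes of the cycle that were called all rose with age, by up to 0.58 on the log2 scale for Idh3a in MPP4, while Idh1 fell in each of them, by up to 0.70 in MPP3. Idh3b was not called in any. Idh3a rose in all 4 MPP fractions in each of the 12 fits run per fraction. Several other calls, given with each gene, were lost when 1 library was left out.

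**Figure D2:**
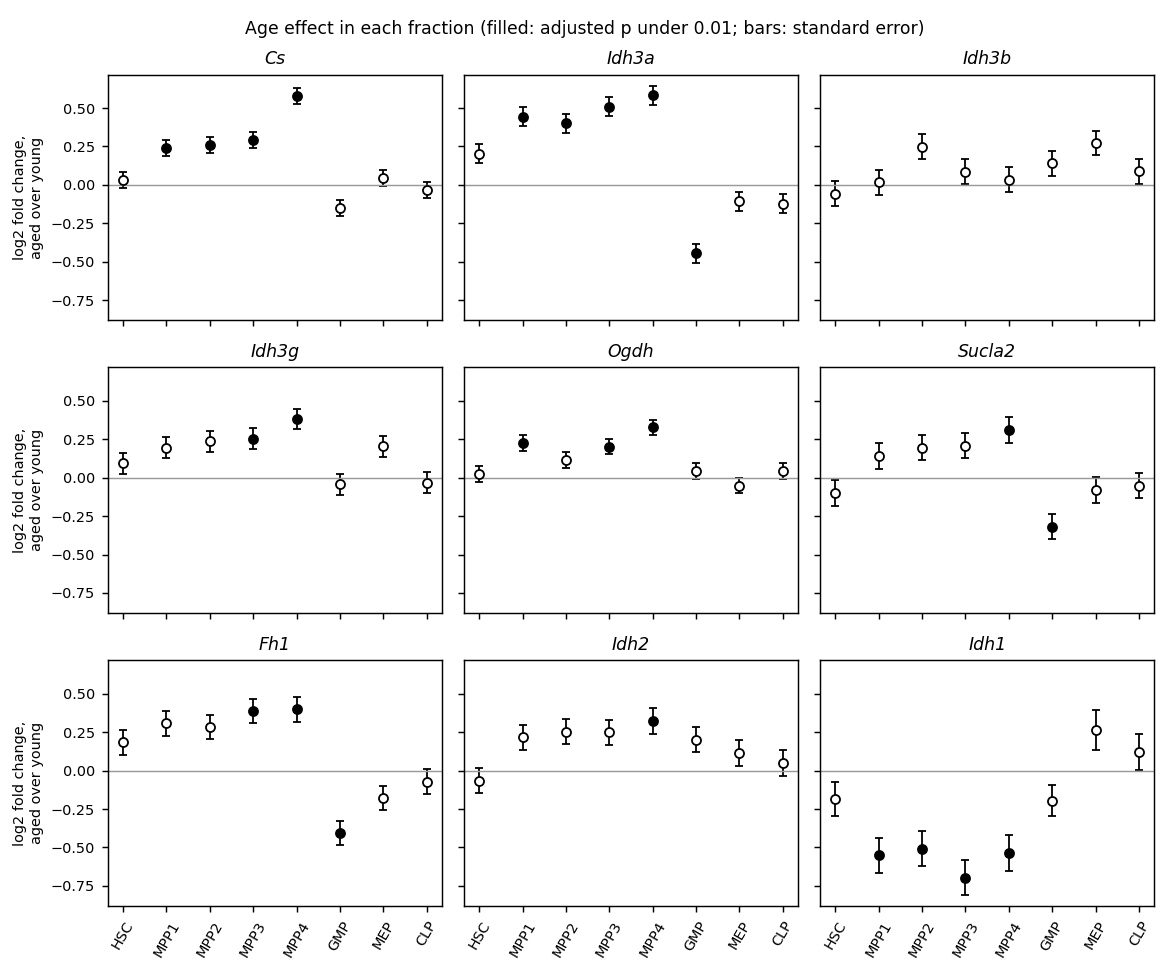
Log2 fold change, aged over young (vertical axis, TMM scale), of each gene in the 8 fractions (horizontal axis). Points are estimates from the edgeR fit, bars their standard errors, and filled points are past an adjusted p of 0.01. Idh3a lies between 0.40 and 0.58 in MPP1 to MPP4 and at -0.44 in GMPs, and Idh1 between -0.70 and -0.51 in MPP1 to MPP4.

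Idh3a was at 158 and 168 CPM in young MPP1 against 222 and 222 in aged MPP1, and at 197 and 192 against 259 and 255 in MPP2. In MPP3 it was at 183 and 187 CPM in young and 257 and 271 in aged cells, and in MPP4 at 165 and 184 against 259 and 263. Young and aged libraries did not overlap in any MPP fraction. The log2 fold changes were 0.44 ± 0.06, 0.40 ± 0.06, 0.51 ± 0.06 and 0.58 ± 0.06 (SE), with adjusted p of 5.6e-05, 0.00017, 6.2e-06 and 7.6e-07. Its partner subunits moved less. Idh3g rose in MPP3 (0.26 ± 0.07, adjusted p = 0.0080) and MPP4 (0.38 ± 0.07, 0.00021), where it went from 201 and 215 CPM to 266 and 276. The MPP3 call of Idh3g was lost whichever of the 4 libraries was left out, and the MPP4 call with none of them. Idh3b was not called in any MPP fraction, with fold changes of 0.02 to 0.25 on the log2 scale, and in MPP4 its levels of 102 and 117 CPM in young and 110 and 115 in aged cells overlapped.

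Cs was at 218 and 219 CPM in young against 255 and 262 in aged MPP1, and at 254 and 252.5 against 310.4 and 297 in MPP2. In MPP3 it was at 233 and 243 against 292 and 290.1. The largest step was in MPP4, from 198 and 197 to 288 and 301.5 CPM (0.58 ± 0.05, adjusted p = 1.1e-07), and the smallest in MPP1 (0.24 ± 0.05, adjusted p = 0.0035). The calls of Cs in MPP3 and MPP4 held with any 1 library left out. Its call in MPP1 held only without aged replicate 1 and that in MPP2 only without aged replicate 2, each 1 of 4 such fits. Young MPP4 had the lowest Cs of all young fractions, while in aged cells the lowest mean was in HSCs, at 212 CPM. Ogdh rose in MPP1, MPP3 and MPP4 by 0.20 to 0.33, and in MPP4 went from 408 and 418 to 512 and 525 CPM (adjusted p = 6.1e-05). Sucla2 rose in MPP4, from 74.8 and 77.8 to 96.4 and 93.0 CPM (0.31 ± 0.08, adjusted p = 0.0077). Fh1 rose in MPP3, from 108 and 108 to 138 and 145 CPM (0.39 ± 0.08, 0.0011), and in MPP4, from 98.8 and 118 to 145 and 141 (0.40 ± 0.08, 0.00072). In MPP1 and MPP2 its fold changes of 0.31 and 0.28 missed the threshold (adjusted p of 0.013 and 0.017). With 1 library left out, the calls of Sucla2 in MPP4 and Ogdh in MPP1 held in 0 of 4 fits and that of Ogdh in MPP3 in 1 of 4 (without young replicate 2). The calls of Fh1 were lost in MPP3 without aged replicate 2 and in MPP4 without young replicate 1.

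Idh1 moved the other way. It was at 43.7 and 43.9 CPM in young and 27.8 and 31.95 in aged MPP1, and at 43.7 and 41.4 against 29.6 and 30.2 in MPP2. In MPP3 it was at 54.7 and 50.8 against 32.6 and 32.5, and in MPP4 at 35.2 and 35.9 against 22.8 and 26.2. Every aged library lay below both young ones. The log2 fold changes were -0.55 ± 0.11, -0.51 ± 0.11, -0.70 ± 0.11 and -0.54 ± 0.12 (adjusted p of 0.0023, 0.0041, 0.00013 and 0.0016). The MPP3 call held with any 1 library left out, those in MPP1 and MPP4 only without aged replicate 2, and that in MPP2 in 0 of 4 such fits. Idh2 lay higher in aged than in young libraries of all 4 fractions. In MPP4 it went from 413 and 451 to 538 and 542 CPM (0.32 ± 0.08, adjusted p = 0.0052), a call that held only without young replicate 2 among the 4 fits without 1 library, and in MPP1 to MPP3 its fold changes of 0.22 to 0.25 missed the threshold (adjusted p of 0.029 to 0.089).

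By fraction, MPP1 had 3 genes higher and 1 lower, beside 4.71% and 2.09% of all genes tested, and MPP2 had 2 higher and 1 lower (4.49% and 3.31%). MPP3 had 5 higher and 1 lower (8.14% and 5.79%), and MPP4 had 7 higher and 1 lower (10.3% and 6.27%). The median over the 9 genes was 0.22, 0.25, 0.25 and 0.33 in the 4 fractions, against -0.04 to 0.00 over all genes. The counts depended on single libraries, while Idh3a was called in each MPP fraction in 12 of 12 fits. Without young replicate 1, young replicate 2, aged replicate 1 or aged replicate 2, the number of genes called was 1, 1, 2 and 2 for MPP1. For MPP2 it was 1, 1, 1 and 2, for MPP3 4, 5, 4 and 3, and for MPP4 4, 6, 5 and 6. Fits on the 4 libraries of a fraction alone called 7 genes in MPP2, 3 in MPP3 and 2 (Cs and Idh3a) in MPP4, and the Wald test of DESeq2 called 5 in MPP2. The shares of all genes above are those of the edgeR fit of all 32 libraries. Shares under these other fits are not given here.

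Averaged over MPP1 to MPP4, 7 genes were higher in aged cells and 1 lower, beside 18.9% and 17.7% of all genes. The mean log2 fold changes were 0.48 ± 0.03 for Idh3a, 0.34 ± 0.04 for Fh1, 0.34 ± 0.03 for Cs, 0.27 ± 0.03 for Idh3g, 0.26 ± 0.04 for Idh2, 0.22 ± 0.03 for Ogdh and 0.21 ± 0.04 for Sucla2 (adjusted p from 9.4e-11 to 0.00021). Idh1 was at -0.57 ± 0.06 (adjusted p = 4.5e-08). These 8 were called in all 22 fits of this mean. Idh3b was at 0.10 ± 0.04 (adjusted p = 0.058).

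In HSCs no member was called by edgeR in the fit of all 32 libraries, beside 3.74% of genes higher and 1.66% lower. At an unadjusted p under 0.05 there were 2, Idh3a and Fh1, a level at which the share of all genes was not counted. Idh3a alone was called by DESeq2 and by edgeR with offsets for GC content and length (0.23, adjusted p = 0.0045). Idh3a was at 131 and 133 CPM in young and 155 and 148 in aged HSCs (0.20 ± 0.06, adjusted p = 0.041), and Fh1 at 76.8 and 81.1 against 91.2 and 88.2 (0.18 ± 0.08, 0.16). Idh2 was at 258 and 264 CPM in young and 229.9 and 269 in aged HSCs, so the ages overlapped. Idh1 lay lower in aged HSCs, at 43.5 and 42.3 against 48.4 and 49.1 CPM, but the fold change of -0.18 ± 0.11 was not past the threshold (adjusted p = 0.35). Whether HSCs differed from MPPs in the age effect was tested directly. Cs differed, with an effect 0.31 ± 0.06 smaller in HSCs (adjusted p = 0.0022), and it was the single member called lower, with none higher, beside 1.10% and 1.91% of all genes. Without a single library the count of this difference was 1 to 4 of the 9 genes, highest without young MPP3 replicate 2 or young MPP4 replicate 2, where Idh3a, Ogdh and Idh2 joined Cs. It was 3 without aged HSC replicate 1 or aged MPP3 replicate 1, and 2 without young MPP3 replicate 1, aged HSC replicate 2 or any of the other aged MPP libraries.

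In GMPs the cycle genes that moved were lower in aged cells. Idh3a went from 339 and 354 CPM in young to 252 and 257 in aged GMPs (-0.44 ± 0.06, adjusted p = 1.7e-05). Fh1 went from 246 and 249 to 185 and 189 (-0.40 ± 0.08, 0.00055), and Sucla2 from 135 and 133 to 106 and 109 (-0.32 ± 0.08, 0.0057). By mean level, Fh1 and Sucla2 were highest in GMPs in young cells and in MEPs in aged ones. These 3 lower and 0 higher calls stand beside 8.97% and 9.93% of all genes. Idh1 was at 403 and 422 CPM in young and 358 and 363 in aged GMPs (-0.19 ± 0.10, adjusted p = 0.17), and Idh2 at 632 and 607 against 712 and 712 (0.20 ± 0.08, 0.069). Idh3a and Fh1 were called in 12 of 12 fits and Sucla2 in 5 of 12, with Sucla2 lost whichever of the 4 GMP libraries was left out.

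MEPs and CLPs had no member called by edgeR in the fit of all 32 libraries. Of all genes, 9.08% were called higher and 11.7% lower in MEPs, and 5.71% and 4.73% in CLPs. In MEPs 3 members were under an unadjusted p of 0.05 (Idh3b, Idh3g and Fh1), and DESeq2 called 1, Fh1. The share of all genes at that unadjusted level was not counted. Idh3b was at 147 and 135 CPM in young and 171 and 169 in aged MEPs (0.27 ± 0.08, adjusted p = 0.013). Idh1 in MEPs was at 11.8 and 16.1 against 18.9 and 14.5 CPM, and the ages overlapped. In CLPs 0 members were under an unadjusted p of 0.05 and DESeq2 called 0. Fold changes there ran from -0.12 for Idh3a to 0.12 for Idh1 on the log2 scale, with standard errors of 0.05 to 0.12. The aged CLP libraries differed from each other, for example at 331 and 411 CPM of Idh2 and 155 and 181 of Fh1.

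The age effect itself differed between the 8 fractions for 7 of the 9 genes (F-test of edgeR with 7 degrees of freedom), beside 34.9% of all genes. Idh3a had the smallest adjusted p (3.0e-08), followed by Cs (1.8e-06), Fh1 (1.5e-05), Idh1 (0.00038), Sucla2 (0.0018), Ogdh (0.0023) and Idh3g (0.0074). Idh2 and Idh3b did not pass (0.10 and 0.18). Without a single library, 6 to 8 genes passed.

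Relative to the mean age effect in MPPs, the effect in GMPs was lower for Idh3a (-0.93 ± 0.07), Fh1 (-0.75 ± 0.09), Sucla2 (-0.53 ± 0.09), Cs (-0.49 ± 0.06) and Idh3g (-0.31 ± 0.07), and higher for 0 genes, beside 13.8% and 12.7% of all genes. In MEPs it was lower for Idh3a, Fh1, Cs and Ogdh (-0.59 to -0.27) and higher for Idh1 (0.84 ± 0.14), beside 14.7% and 10.2%. In CLPs it was lower for Idh3a, Fh1, Cs and Idh3g (-0.61 to -0.30) and higher for Idh1 (0.70 ± 0.13), beside 12.3% and 10.3%. Without aged CLP replicate 1 the CLP count was 3 in place of 5. The fall of Idh1 in aged MPPs thus differed in size from its change in MEPs and CLPs, and the test against GMPs (difference 0.38 ± 0.12, adjusted p = 0.015) and HSCs (0.39 ± 0.13, 0.059) missed the threshold.

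Ratios of counts within a library need no scaling between libraries. For 4 such ratios, the difference between ages was averaged over the 8 fractions and tested by an exact permutation test within fractions (two-sided, 1679616 arrangements, Benjamini-Hochberg over the 4). The permutations treat fractions as independent, also in the test within MPP1 to MPP4 below. Whether fractions were sorted from the same pools of marrow is not given in the sources used here. These p-values may thus overstate the replication. The ratio of Idh2 to Idh1 was higher in aged cells by 0.45 on the log2 scale (exact permutation p = 0.00048, adjusted p = 0.0019), and in 6 of 8 fractions. In MPP4 it was 11.7 and 12.6 in young against 23.6 and 20.7 in aged libraries, and in MPP3 7.502 and 8.46 against 14.6 and 16.1. In GMPs it was 1.57 and 1.44 against 1.99 and 1.96. In HSCs it was 5.32 and 5.38 against 5.28 and 6.36, and in MEPs 14.7 and 11.3 against 10.5 and 12.8, where the ages overlapped. The call rested on the MPPs together: leaving out MPP1, MPP2, MPP3 or MPP4 gave 0.38 to 0.41 with adjusted p just above the threshold of 0.01 (0.011 each).

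**Figure D3:**
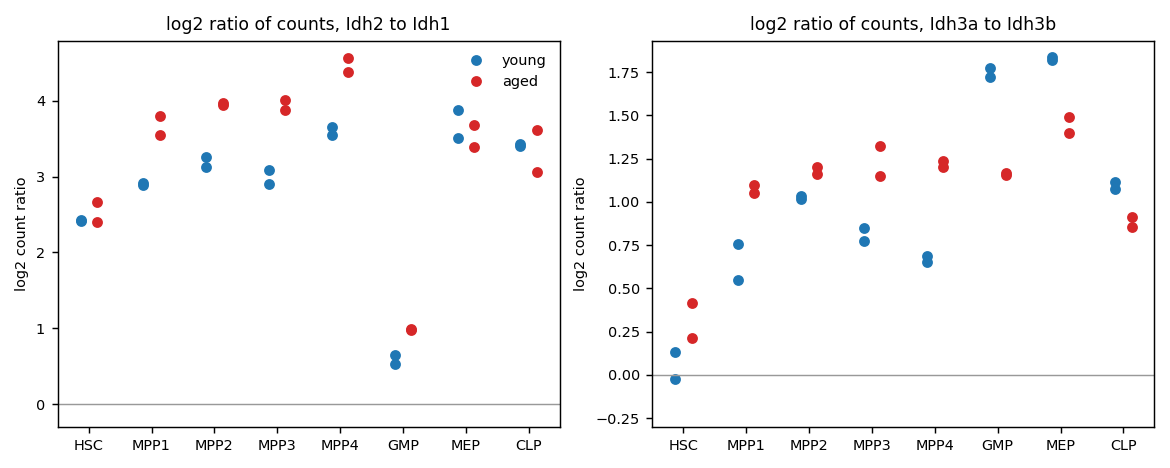
Log2 ratio of read counts (vertical axis) of Idh2 to Idh1 (left) and Idh3a to Idh3b (right) in the 8 fractions (horizontal axis). Each point is 1 library, blue for young and red for aged. For Idh2 to Idh1 the aged points lie above the young ones in MPP1 to MPP4 and GMPs. For Idh3a to Idh3b they lie above in HSCs and MPPs and below in GMPs, MEPs and CLPs.

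The balance of the IDH3 subunits moved in different directions along the fractions. The ratio of Idh3a to Idh3b changed by 0.26 in HSCs and by 0.15 to 0.55 in MPPs on the log2 scale, while the changes for GMPs, MEPs and CLPs were -0.59, -0.38 and -0.21. Averaged over the 8 fractions it was 0.08 (adjusted p = 0.46). In GMPs the count ratio was 3.42 and 3.29 in young and 2.25 and 2.23 in aged libraries, and in MPP4 1.61 and 1.57 against 2.35 and 2.30, so that aged MPP4 and aged GMPs had nearly the same ratio. Within MPP1 to MPP4 alone, the ratio was higher in aged cells by 0.39 for Idh3a to Idh3b and by 0.22 for Idh3a to Idh3g (adjusted p of 0.0021 for each, with p = 0.0015, the smallest these permutations can give). Over all 8 fractions Idh3a to Idh3g (0.02, adjusted p = 0.66) and Idh3b to Idh3g (-0.06, 0.35) were not past the threshold.

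The other genes of the cycle were read from a list of 10, among them Dlst, Dld, the succinate dehydrogenase subunits and Mdh2. All 10 were tested. In aged MPP1, MPP2, MPP3 and MPP4, 2, 6, 7 and 9 of them were higher and 0 lower, beside the 4.71%, 4.49%, 8.14% and 10.3% of all genes that were higher, with medians of 0.21, 0.31, 0.30 and 0.40. In HSCs 0 were called by edgeR in either direction, with a median of 0.10 against 0.02 over all genes. In GMPs 1 was lower, Dld (-0.48 ± 0.10), in MEPs 3 were higher, among them Mdh2 and Sdhc, and in CLPs 1 was higher, Dlst (0.23 ± 0.06). Of all genes, 8.97% were lower in GMPs, and 9.08% and 5.71% were higher in MEPs and CLPs. Mdh2, which makes oxaloacetate from malate, was called in 5 fractions, the 4 MPP fractions and MEPs. Mdh2 went from 315 ± 31 to 476 ± 17 CPM in MPP4 and from 743 ± 23 to 950.4 ± 43 in MEPs (mean ± SD, n = 2). Sdhb and Sdhd, of succinate dehydrogenase, rose in MPP2, MPP3 and MPP4 by 0.36 to 0.49. Averaged over MPP1 to MPP4, 10 of 10 were higher, beside 18.9% of all genes.

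Entry of pyruvate into the cycle was read from 13 genes of its carriers, the pyruvate dehydrogenase complex and its regulators. Here Pdk2, a kinase that inhibits the complex, was called most often. It fell in MPP1 to MPP4, for example from 55.5 ± 2.6 to 28.9 ± 1.5 CPM in MPP4 (-0.94 ± 0.15, adjusted p = 0.00010), and rose in MEPs (0.68 ± 0.16, 0.0028). It was the single gene of the list that fell in each MPP fraction, and 0 rose in MPP1, MPP2 and MPP3 and 1 in MPP4, Pdhx, a structural subunit of the complex (0.51 ± 0.11). Of all genes, 2.09%, 3.31%, 5.79% and 6.27% were lower in MPP1 to MPP4, and 4.71%, 4.49%, 8.14% and 10.3% higher. In GMPs 4 fell, beside 8.97% of all genes: Mpc1, a subunit of the mitochondrial pyruvate carrier (-0.60 ± 0.09), Pdha1, a catalytic subunit of the complex (-0.44 ± 0.08), and Pdp1 and Pdp2, phosphatases that reactivate it (-0.72 ± 0.15 and -0.60 ± 0.16). Mpc1 and Pdp1 fell in MEPs too, and Pcx, pyruvate carboxylase, in CLPs (-0.88 ± 0.20). Shares of all genes were 9.08% higher and 11.7% lower in MEPs, and 4.73% lower in CLPs. No gene of this list was called in HSCs by edgeR. Averaged over MPP1 to MPP4, 6 of the 13 were higher and 1 lower, beside 18.9% and 17.7% of all genes.

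Of 16 genes for neighbouring reactions of citrate, malate and glutamate, 15 were tested. Me2, the mitochondrial NAD-dependent malic enzyme, and Got2, the mitochondrial aspartate aminotransferase, rose in all 4 MPP fractions. Me2 went from 81.2 ± 2.1 to 132 ± 3 CPM in MPP4 (0.70 ± 0.08, adjusted p = 2.5e-06) and fell in GMPs (-0.47 ± 0.08). D2hgdh, which oxidises D-2-hydroxyglutarate to 2-oxoglutarate, rose in GMPs, MEPs and CLPs (0.36 to 0.44) and fell in MPP4 (-0.33 ± 0.08). Got1, the cytosolic aminotransferase, rose in MPP3 and MPP4 and fell in GMPs. The one call in HSCs was Acly, ATP citrate lyase, which was lower in aged cells (-0.32 ± 0.07, adjusted p = 0.0043). Slc25a10, the dicarboxylate carrier, rose in MPP3 and MPP4 (0.48 and 0.58), Slc25a1, the citrate carrier, rose in GMPs and MEPs (0.39 and 0.44), Glud1, glutamate dehydrogenase, fell in both (-0.37 and -0.39), and Aco1 rose in CLPs (0.44). Higher and lower calls in the list were 2 and 0 for MPP1 and MPP2, 4 and 0 for MPP3 and 4 and 1 for MPP4. GMPs had 2 and 3, MEPs 2 and 1 and CLPs 2 and 0. Written as higher/lower, background shares among all genes were 4.71%/2.09% (MPP1), 4.49%/3.31% (MPP2), 8.14%/5.79% (MPP3) and 10.3%/6.27% (MPP4). For oligopotent fractions this background was 5.71%/4.73% (CLPs), 9.08%/11.7% (MEPs) and 9.93%/8.97% (GMPs). The share lower with age among HSC genes was 1.66%. In the mean of the MPP fractions, 5 of these 15 rose and 2 fell, against a background of 18.9%/17.7%.

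The list of mitochondrial protein import and mitochondrial DNA upkeep held 14 symbols, with Twnk and Peo1 as names of the same gene. Among them were Vdac1, Vdac2 and Vdac3, channels of the outer membrane. Of its 13 genes, all in the table and tested, 2, 2, 6 and 6 were higher and 0 lower in aged MPP1 to MPP4. Vdac1 was among those higher in MPP3, and Vdac2 and Vdac3 among those higher in MPP4. In GMPs 6 were lower, Vdac2 and Vdac3 among them, and 1 higher, Polg, the mitochondrial DNA polymerase (0.71 ± 0.11). In HSCs 0 were called by edgeR. Of all genes, 4.71%, 4.49%, 8.14% and 10.3% were higher in MPP1 to MPP4, and in GMPs 8.97% were lower and 9.93% higher. Timm23, a channel of the inner membrane, rose in the 4 MPP fractions (0.32 to 0.63) and fell in GMPs (-0.46 ± 0.07) and CLPs (-0.29 ± 0.07). Tomm40, the outer membrane channel, rose in the MPPs and in MEPs (0.41 to 0.82), and Tomm20 and Tomm22, import receptors, rose in MPP3 and fell in GMPs, with Tomm22 also higher in MPP4 and Tomm20 lower in CLPs. Tfam, which packages mitochondrial DNA, fell in GMPs (-0.60 ± 0.09) and MEPs (-0.31 ± 0.09).

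Genes of DNA replication changed with age in every fraction. Of 15 S phase genes, 6 were higher in aged HSCs, 5 in aged MPP2, 14 each in aged MPP3 and MPP4, and all 15 in aged MPP1, with none lower there. In GMPs, MEPs and CLPs, 8, 6 and 11 were lower and 0 higher. Of all genes, 3.74% were higher in HSCs, and 4.71%, 4.49%, 8.14% and 10.3% in MPP1 to MPP4. The shares lower in GMPs, MEPs and CLPs were 8.97%, 11.7% and 4.73%. The medians ran from 0.61 in MPP1 to -0.33 in CLPs. Rrm2, a subunit of ribonucleotide reductase, was called in all 8 fractions, from 1.06 ± 0.08 in MPP4 to -0.55 ± 0.08 in CLPs, Rrm1, its other subunit, in all 8 as well, Pcna, the replication clamp, in 7, and Tyms, thymidylate synthase, in 6. The part of these genes' shift in the changes of the 9 members was not tested. In HSCs the S phase median was 0.42 while that of the members was 0.02, and in CLPs it was -0.33 against -0.03.

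**Figure D4:**
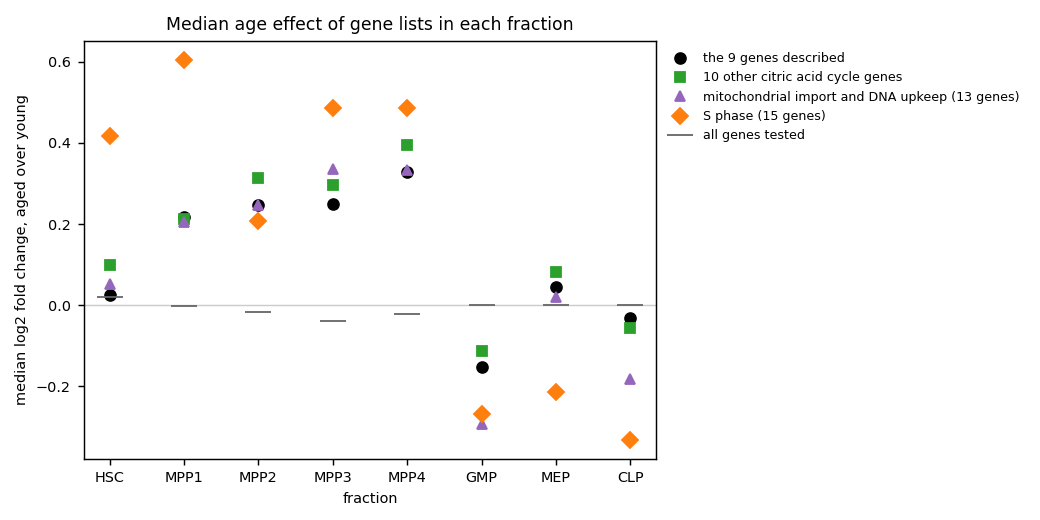
Median log2 fold change, aged over young (vertical axis), of the 9 genes (black circles), 10 other citric acid cycle genes (green squares), 13 genes of mitochondrial import and DNA upkeep (purple triangles), 15 S phase genes (orange diamonds) and all genes tested (grey lines) in the 8 fractions (horizontal axis). The 9 genes lie between 0.22 and 0.33 in MPP1 to MPP4 and at -0.15 in GMPs, with the S phase genes on the same side of 0.

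Markers of other cell types also moved with age. The 8 erythroid genes summed to 572 to 633 CPM in young and 276 to 283 in aged MPP1, 1308 to 1444 against 324 to 342 in MPP2, 1490.2 to 1561 against 306 to 341 in MPP3, and 526 to 655 against 163 to 175 in MPP4. In GMPs the sums were 1066 to 1238 against 46.4 to 120 CPM, with 4 of 8 genes called lower in MPP2, in MPP3 and in GMPs, 2 in MPP4 and 0 in MPP1. The shares of all genes called lower were 3.31%, 5.79%, 8.97%, 6.27% and 2.09% in these fractions. None of the 8 was at 0 in any group. Cs and Idh3a, which peaked in MEPs, rose in the MPP fractions, where these sums were lower in aged cells, and Idh3a fell in GMPs, where the sum was lower too. The neutrophil and monocyte list, of which 7 of 8 genes were in the table, summed to 4310 to 4556 CPM in young and 2222 to 2228 in aged MPP3, to 2412 to 2519 against 1810.3 to 1832 in MPP2, to 279 to 288 against 411 to 651 in MPP1, and to 790.3 to 842 against 879 to 912 in MPP4. Idh1, which peaked in GMPs, was lower in aged cells both where this sum was lower (MPP2, MPP3) and where it was higher (MPP1, MPP4). In GMPs the basophil and mast cell sum was 645 to 656 against 270.2 to 351 CPM and the neutrophil and monocyte sum 90334 to 91848 against 90774 to 91009. The 5 macrophage genes summed to 22.5 to 110 CPM in young and 7.08 to 32.7 in aged MPPs, and the 5 T and NK genes to 37.2 to 171 against 58.5 to 212, with Cd3e and Cd3g at 0 in young and aged MPP1 and MPP4. Of the B lineage genes, Pax5 was at 0 in young and aged MPPs. In CLPs the neutrophil and monocyte sum was 1817 to 1868 CPM in young and 318 to 353 in aged cells. The erythroid sum there was 1929 to 1996 against 118 to 720, and the macrophage sum 111 to 123 against 2.55 to 2.60. For the B lineage genes it was 1875 to 1943 against 814 to 823 CPM, and for the T and NK genes 121 to 126 against 128 to 143. The part of these cells in the changes of the members was not tested.

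Over the 16 group means of log2 CPM, the genes whose pattern was most like a member's were Tmem14c (r = 0.99), Ints5 and Psmc2 for Cs, Guf1 (0.99), Ercc8 and Gars for Idh3a, and Dph5 (0.95), Rangrf and Zfp637 for Idh3b. For Idh3g they were 9130401M01Rik (0.96), Slc25a39 and Thyn1, for Ogdh Ndc1 (0.94), Zdhhc3 and Slc25a5, for Sucla2 G3bp1 (0.99), Nudcd2 and Trim27, and for Fh1 Trmt6 (0.99), Snrpb2 and Golt1b. Idh2 was most like Impa2 (0.97), Cebpa, a transcription factor of granulocyte development, and Tmem180, and Idh1 most like Trim45 (0.98) and Csf2ra, the GM-CSF receptor alpha chain. Among the members, Cs and Idh3a (r = 0.92) and Sucla2 and Fh1 (0.93) were closest, while Cs and Idh2 (-0.29) and Idh3b and Idh2 (-0.55) had a negative r. Idh2 and Idh1 had an r of 0.67. These are descriptions over 16 means that share libraries and scaling within a group.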

How the data were processed

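RNA was measured in 32 libraries, 2 for each of 8 sorted fractions and 2 ages. Per the labels and the methods of the study, cDNA was made with the SMARTer Ultra Low Input kit and sequenced as single 60-base reads. The authors aligned the reads to mm10 with TopHat2 2.0.13 and Bowtie2 2.1.0 and used StringTie, as their methods and the submitters' processing notes give, and deposited raw read counts per gene. Molecular identifiers and the use of strand in counting are not given in the sources used here. Total counts were 11237384 to 17723245 per library, and intervals and limits cover counting error only. The deposited table names genes by symbol, and 27 names turned into dates held 0.188% of counts.

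From these counts, genes with low counts were removed (filterByExpr over 16 groups, leaving 14154 of 24421 genes), libraries were scaled by TMM, and all 32 libraries were fitted in 1 model with edgeR 4.0.16 in R 4.3.3 (quasi-likelihood F-test, Benjamini-Hochberg adjustment over all genes within a comparison, calls at an adjusted p under 0.01). Errors of fold changes are standard errors of this fit. Age was compared within each fraction, as the mean over MPP1 to MPP4, and between fractions. Scripts were tested on simulated data. Ratios of raw counts were compared by exact permutation tests. Alternatives were DESeq2 1.42.0 (Wald test, or its size factors), no filter, offsets for GC content and length (values for 98.9% of genes tested), a threshold of 0.05, the 4 libraries of a fraction alone, a replicate block, and leaving out each library. Counting error did not account for the difference between replicates of any group, so no pair was taken as a repeat deposit of 1 library. Coordinates are those of GRCm38, and promoters those of RefSeq.

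The members and gene lists were chosen with earlier results of these data known. Of each list, at most 4 genes were named by rule, those called in the most of the 8 age comparisons. Further genes of the lists, such as Pdhx, Acly and Polg, were named after their values were seen. For each member, the 3 genes most like it over 16 group means are given. Some genes that these rules named are not reported here.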

Additional observations from a re-analysis of the deposited data

Results flagged for a closer look

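No group held the 4 to 10 libraries that a test for a single outlying library needs, so none was made. The results given here are those in which the effect of age differed between fractions by a test of that difference (edgeR, quasi-likelihood F-test, adjusted p under 0.01). Over the 8 fractions, the effect differed for Idh3a (adjusted p = 3.0e-08), Cs (1.8e-06), Fh1 (1.5e-05), Idh1 (0.00038), Sucla2 (0.0018), Ogdh (0.0023) and Idh3g (0.0074).

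Against the mean of MPP1 to MPP4, the log2 effect of age was lower in HSCs for Cs (-0.31). In GMPs it was lower for Idh3a (-0.93), Fh1 (-0.75), Sucla2 (-0.53), Cs (-0.49) and Idh3g (-0.31). In MEPs it was lower for Idh3a (-0.59), Fh1 (-0.53), Cs (-0.30) and Ogdh (-0.27) and higher for Idh1 (0.84). In CLPs it was lower for Idh3a (-0.61), Fh1 (-0.42), Cs (-0.37) and Idh3g (-0.30) and higher for Idh1 (0.70). These comparisons share the MPP libraries.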

How the results depend on the processing

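Among counts of genes and ratios under the alternatives, 356 values kept their direction and side of the threshold or stayed within 1.5 times the count, 43 counts moved further, and 9 ratios changed side or sign. Among values for single genes, 1739 kept their side of the threshold, 84 lost the call and 58 gained it, with no called value reversed. Without 1 library at a time, the genes called numbered 1 to 2 in MPP1, 1 to 2 in MPP2, 3 to 5 in MPP3, 4 to 6 in MPP4, 2 in GMPs, 0 in HSCs, MEPs and CLPs, and 8 to 9 for the MPP mean, and the differences from MPPs 1 to 4 in HSCs, 4 to 5 in GMPs, 5 to 6 in MEPs and 3 to 6 in CLPs. With DESeq2, 1 gene was called in HSCs, 5 in MPP2 and 1 in MEPs. With offsets for GC content and length, 1 was called in HSCs, 5 in MPP2 and 2 in the difference between HSCs and MPPs. At a threshold of 0.05, these were 1 in HSCs, 7 in MPP2, 2 in MEPs and 5 in that difference. Fits on 4 libraries alone called 7 in MPP2, 3 in MPP3 and 2 in MPP4. The cause was not tested. Shares of all genes under these alternatives are not given here, so the counts have no background beside them. The ratio of Idh2 to Idh1 was 0.41, 0.41, 0.38 and 0.39 without MPP1, MPP2, MPP3 and MPP4, where it missed the threshold. In MPP1 to MPP4 alone, Idh3a to Idh3b was 0.39 and Idh3a to Idh3g 0.22, both past it. Idh3a to Idh3g changed sign, from 0.02 to -0.0094, -0.010 and -0.0029, without MPP1, MPP3 and MPP4, and was past the threshold in none of these.

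Replicate numbers were not shown to pair libraries: deviations of same-numbered young and aged libraries correlated at -0.43 in MPP1 and -0.12 in MPP2 and between -0.01 and 0.25 in the other fractions. With a replicate block, 1 gene was called in MPP1, 1 in MEPs and 0 in the difference between HSCs and MPPs. Adjusted p of edgeR under the block were 0.015 for Cs and 0.012 for Idh1 in MPP1, 0.017 for Idh1 in MPP2, 0.012 for Cs in that difference, and 0.0051 for Idh3b, the gene called in MEPs. With the numbers crossed in aged MPP1 and MPP2, an alternative chosen after seeing the data, these counts under the block were 1, 1 and 0 as well. With 2 libraries per group, small effects in low genes such as Idh1 in MEPs are the least precise.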
